A study of Mus musculus with 91 samples.

Results

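The Gadd45 genes and 7 genes that the tumour suppressor p53 is known to switch on were followed through the livers of 91 male mice given one of several liver-active chemicals or a vehicle. The 10 genes were chosen by name: Gadd45a, Gadd45b, Gadd45g, Cdkn1a, Mdm2, Ccng1, Bax, Trp53inp1, Btg2 and Phlda3. Of these, 9 had a probe set that the platform's annotation gives to that gene alone, 18 probe sets in all, among 18193 genes measured that way. Bax was not analysed here. Where a gene had several, the probe set with the highest mean signal stood for it, and the identifiers were 1449519_at for Gadd45a, 1450971_at for Gadd45b, 1453851_a_at for Gadd45g, 1421679_a_at for Cdkn1a, 1423605_a_at for Mdm2, 1420827_a_at for Ccng1, 1416926_at for Trp53inp1, 1416250_at for Btg2 and 1449002_at for Phlda3.

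The mice were adults on a C57BL/6J background. The treated groups, each with its own control, were CITCO by intraperitoneal injection at 10 mg/kg a day for 28 days in the strain labelled C57BL/hCAR/hPXR against carboxymethylcellulose (CMC) in that strain; CITCO at the same dose in C57BL mice against CMC cohort Co4; phenobarbital at 0.05% in the drinking water for 28 and for 56 days against water at the same times; cyproterone acetate at 160 mg/kg and 1,4-dichlorobenzene at 600 mg/kg, both by gavage and both against the same corn oil group; piperonyl butoxide at 600 mg/kg by intraperitoneal injection against CMC cohort Co2; Wy-14643 at 100 mg/kg by gavage against CMC cohort Co1; pioglitazone at 100 mg/kg by gavage against CMC cohort Co5; and methapyrilene at 1000 ppm in the food against CMC cohort Co3. All but the 56-day groups lasted 28 days. Of the 19 groups, 15 held 5 mice and 4 held 4 mice (piperonyl butoxide and cohorts Co1, Co3 and Co5). The 10 mice of the hCAR/hPXR strain carry human versions of the drug-sensing receptors CAR and PXR, the C57BL mice their own. No group lacked p53 or any of the genes followed here, so the word target below rests on background knowledge and not on a measurement in these livers.

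Gadd45 proteins are small acidic nuclear proteins induced by stress and growth arrest. They bind PCNA, cyclin-dependent kinase 1 and the kinase Map3k4, which acts upstream of p38 and JNK. Gadd45a is the classical p53 target of the family, while Gadd45b is switched on by NF-kB and TGF-beta signalling and, in mouse liver, during regeneration and by activators of CAR. p53 is a transcription factor held low by the ubiquitin ligase Mdm2, which it induces itself, and after DNA damage it raises the cell cycle inhibitor Cdkn1a (p21), cyclin G1 (Ccng1), the antiproliferative cofactor Btg2, the stress protein Trp53inp1 and the Akt inhibitor Phlda3.

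Promoter sequences are shown for the 3 genes with the largest differences that passed the test in treated livers, Gadd45b, Cdkn1a and Btg2, and for Gadd45g, whose promoter holds the same pair of motifs as that of Gadd45b. They come from RefSeq on build GRCm38.p6 and run from 250 bases before to 50 bases after the annotated start, 5′ to 3′ on the strand of the gene. Capitals mark the motifs searched on both strands. Of the 10 genes, 9 had a promoter in the table used, and Cdkn1a had 2, of which the upstream one is shown.
Cdkn1a (chr17:29090729-29091028, + strand): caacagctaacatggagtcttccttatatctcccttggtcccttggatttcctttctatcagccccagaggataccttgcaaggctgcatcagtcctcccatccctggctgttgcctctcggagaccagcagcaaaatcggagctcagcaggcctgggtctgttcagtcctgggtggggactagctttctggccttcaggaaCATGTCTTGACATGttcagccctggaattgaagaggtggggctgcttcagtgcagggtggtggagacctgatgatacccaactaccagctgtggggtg
Btg2 (chr1:134079106-134079405, - strand): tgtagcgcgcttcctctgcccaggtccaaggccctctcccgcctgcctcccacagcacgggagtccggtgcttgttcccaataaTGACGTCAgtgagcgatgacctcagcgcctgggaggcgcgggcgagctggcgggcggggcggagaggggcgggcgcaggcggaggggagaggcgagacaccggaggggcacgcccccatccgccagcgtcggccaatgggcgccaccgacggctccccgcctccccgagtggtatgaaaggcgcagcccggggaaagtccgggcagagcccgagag
Gadd45b (chr10:80929841-80930140, + strand): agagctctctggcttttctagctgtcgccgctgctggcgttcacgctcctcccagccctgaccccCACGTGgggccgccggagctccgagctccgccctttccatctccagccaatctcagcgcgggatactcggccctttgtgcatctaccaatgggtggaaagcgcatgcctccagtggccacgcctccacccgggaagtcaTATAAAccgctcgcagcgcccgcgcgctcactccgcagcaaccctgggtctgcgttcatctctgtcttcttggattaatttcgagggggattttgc
Gadd45g (chr13:51846425-51846724, + strand): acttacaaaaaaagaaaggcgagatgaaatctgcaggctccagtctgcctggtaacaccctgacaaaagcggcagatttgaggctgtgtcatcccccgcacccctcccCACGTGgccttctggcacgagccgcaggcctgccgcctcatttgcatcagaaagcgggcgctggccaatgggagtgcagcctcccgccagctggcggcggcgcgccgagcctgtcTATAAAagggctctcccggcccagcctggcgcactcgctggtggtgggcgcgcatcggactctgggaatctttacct
In the upstream Cdkn1a promoter the capitals mark the core of a p53 element, CATG, 6 bases and CATG, which begins at position -48 from that start. This core is found in 0.712% of the 32851 promoters in the table. The other Cdkn1a promoter, downstream of the one shown, held none of the motifs searched. The Btg2 promoter holds the cyclic AMP response element TGACGTCA, at position -166, found in 1.79% of promoters. Gadd45b and Gadd45g each hold an E-box, CACGTG, at positions -185 and -142, and a TATA box, TATAAA, at positions -46 and -27. An E-box of these letters is found in 7.15% of all promoters and these TATA letters in 13.6%. The motifs do not overlap each other in these windows. They were chosen after the promoters had been read, and a match describes the letters only.

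Levels are log2 values made by the authors with RMA. Values over the whole table ran from 2.61 to 15.34 and array medians from 5.18 to 5.36. Differences are treated minus control, given with the standard error of a limma model over all 19 groups, and a gene passed at a Benjamini-Hochberg adjusted p below 0.05 over all 18193 genes. The hepatocyte marker list averaged between 12.49 and 13.76 in every liver, and the bile duct list between 4.84 and 5.83. A difference in a marker can come from more cells of a type or from more RNA in each cell, which cannot be told apart in whole liver. 2 groups went against their labels. The livers labelled pioglitazone, a PPAR-gamma agonist, differed from cohort Co5 by 6.06 ± 0.495 in Cyp2b10, the main CAR target, but by -0.05 ± 0.557 in Cidea and -0.33 ± 0.54 in Fabp4, which are PPAR targets. The livers labelled methapyrilene, an antihistamine, differed from cohort Co3 by -0.36 ± 0.495 in Cyp2b10 but by 3.11 ± 0.557 in Cidea and 3.37 ± 0.54 in Fabp4. They are therefore called the livers labelled pioglitazone and the livers labelled methapyrilene throughout. None of the 9 genes followed here passed in either of these comparisons. With Wy-14643 the same PPAR targets differed from cohort Co1 by 5.03 ± 0.557 (Cidea) and 5.14 ± 0.54 (Fabp4). Of 13 listed targets of drug-sensing and related receptors, 4 rose and 1 fell with Wy-14643. Cyp4a14, also on that list, differed by 2.29 ± 0.865 and did not pass (adjusted p 0.0733, limma).

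Wy-14643, an agonist of PPAR-alpha, moved more of the 9 genes than any other compound given here, and Gadd45b was the gene that rose in the most comparisons. With Wy-14643, 5 of the 9 rose and 1 fell, where 10.6% of all genes passed in either direction. The count of 6 became 1 to 7 when 1 of the 9 livers was left out (1, Ccng1, without Wy-14643 replicate 5, 2 without replicate 2 and 3 without control replicates 1, 3 or 4), and 2 in a model of the 2 groups alone. How many of all genes passed in those fits was not recorded. In each of 4 other comparisons exactly 1 gene rose: Gadd45b after phenobarbital at 28 days (0.967% of all genes passed) and at 56 days (0.566%) and after cyproterone acetate (5.32%), and Ccng1 after 1,4-dichlorobenzene (3.83%). None of the 9 passed after CITCO in hCAR/hPXR mice (0.0989% of all genes), CITCO in C57BL mice (0.0055%), piperonyl butoxide (0.808%), or in the livers labelled pioglitazone (0.022%) and methapyrilene (0.181%). At an unadjusted p below 0.05 in limma those 5 comparisons held 1, 1, 0, 1 and 0 of the 9. Of all 18193 genes, 1274, 874, 2253, 1394 and 1224 had such a p, in the same order. The median difference of the 9 genes was 0.57 with Wy-14643, against -0.04 for all genes, and lay between -0.25 and 0.18 in the other 9 comparisons.

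**Figure D1:**
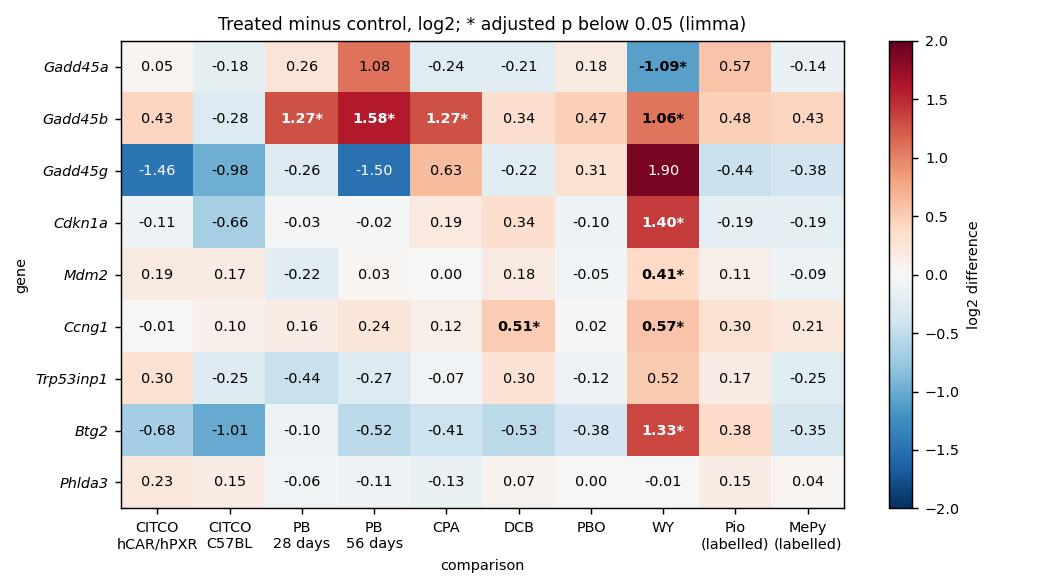
Treated minus control log2 difference of the 9 measured genes (rows) in the 10 comparisons (columns), coloured from -2 (blue) to 2 (red). Asterisks mark an adjusted p below 0.05 in limma; 6 of the 10 marked cells stand in the Wy-14643 column and 4 in the Gadd45b row.

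Gadd45b was higher after phenobarbital at both times. After 28 days of phenobarbital the 5 livers had Gadd45b at 8.22, 8.76, 7.79, 8.45 and 7.81, against 7.38, 6.34, 6.63, 6.99 and 7.33 in the water livers. The groups did not overlap, and the difference was 1.27 ± 0.293 (adjusted p 0.010, limma), 2.42-fold. After 56 days the 5 phenobarbital livers had 8.56, 7.89, 8.25, 8.87 and 9.44, against 6.97, 7.15, 6.43, 7.02 and 7.53 in water. Again the lowest treated liver stood above the highest control, and the difference was 1.58 ± 0.293 (adjusted p 0.000374), 2.99-fold. The rise at 56 days passed whichever of the 10 livers was left out, whereas the rise at 28 days missed the threshold without phenobarbital replicate 2 (1.14, adjusted p 0.0541) or water replicate 2 (1.13, adjusted p 0.0692). The titles of the 28-day phenobarbital arrays end in "(2)", which the sources used here do not explain. The increases at 56 and 28 days were not distinguished: their difference was 0.31 ± 0.414 with a 95% interval from -0.52 to 1.13. In that comparison none of the 9 genes and 0% of all genes passed in limma. An unadjusted p below 0.05 was found for 0 of the 9 and for 879 of all 18193 genes.

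With cyproterone acetate, a steroidal antiandrogen, Gadd45b was at 9.07, 9.97, 7.62, 8.37 and 7.44, against 6.98, 7.25, 7.53, 7.20 and 7.17 in corn oil livers. It rose by 1.27 ± 0.293 (adjusted p 0.00291), but replicate 5 of the treated livers lay below the highest control, and the treated SD of 1.05 was well above the control SD of 0.199. Without treated replicate 2 the difference was 0.90 (adjusted p 0.0627), and with a model of the 2 groups alone the same difference had an adjusted p of 0.129. That liver, replicate 2, was the highest of its group for 7 of the 9 genes (Gadd45a, Gadd45b, Gadd45g, Mdm2, Ccng1, Btg2 and Phlda3). 4 of 21 acute phase genes also rose with cyproterone acetate, Lcn2 most (3.63 ± 0.979), and 6 of 14 clock and output genes fell and 2 rose, led by Dbp (-2.24 ± 0.462), Ciart (-1.61 ± 0.28), Per3 (-1.58 ± 0.31) and Per1 (-1.38 ± 0.331). Of 19 proliferation genes Ccnd1 fell (-2.21 ± 0.393), and of 7 hepatocyte markers Hnf4a (-0.47 ± 0.117) and Apoa1 (-0.14 ± 0.0373) fell. Their part in the Gadd45b values was not tested.

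Gadd45b after 1,4-dichlorobenzene was at 7.15, 8.11, 7.57, 7.40 and 7.60, and its difference from the same corn oil livers was 0.34 ± 0.293, which did not pass. Set against each other, cyproterone acetate livers exceeded 1,4-dichlorobenzene livers by 0.93 ± 0.293 in Gadd45b (adjusted p 0.0519), just short of the threshold. The direct comparison passed for 4.11% of all genes and for none of the 9, of which 2 had an unadjusted p below 0.05: Gadd45b and Ccng1. Of all 18193 genes, 2646 had such a p. The adjusted p of this Gadd45b difference was 0.039 with array medians subtracted, 0.0201 with all probe sets of a gene averaged and 0.0353 with genes below the median gene left out, but 0.42 in a model of the 2 groups alone. Of 10 fits that left out 1 liver 3 passed and 7 did not, and without cyproterone acetate replicate 2 the difference was 0.56 (adjusted p 0.309).

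With Wy-14643 Gadd45b was at 8.77, 7.47, 8.26, 8.62 and 9.09, against 7.84, 7.34, 6.95 and 7.38 in cohort Co1. It rose by 1.06 ± 0.311 (adjusted p 0.0163), and only replicate 2 of the treated livers overlapped the controls. The call was lost without Wy-14643 replicate 5 (0.90, adjusted p 0.0784) or control replicate 3 (0.92, adjusted p 0.0702), and with all probe sets of the gene averaged (0.68, adjusted p 0.0557). In the other comparisons Gadd45b did not pass, with differences of 0.43 for CITCO in hCAR/hPXR mice, -0.28 for CITCO in C57BL mice, 0.47 for piperonyl butoxide, 0.48 in the livers labelled pioglitazone and 0.43 in those labelled methapyrilene. The 2 strains given CITCO were not distinguished, with a hCAR/hPXR minus C57BL difference of responses of 0.70 ± 0.414 (95% interval -0.12 to 1.53). None of the 9 genes and 0.0055% of all genes passed there. An unadjusted p below 0.05 was found for 0 of the 9 and for 367 of all 18193 genes.

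**Figure D2:**
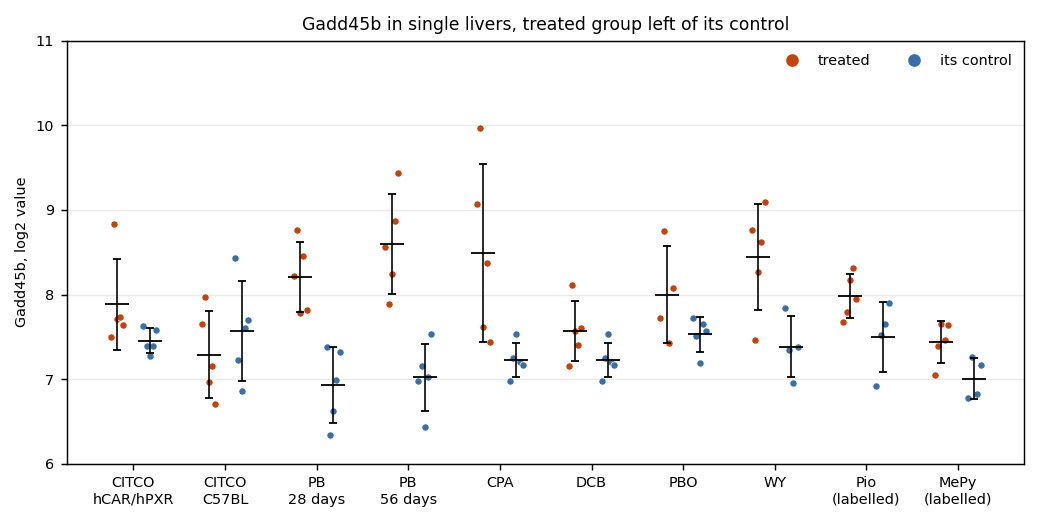
Gadd45b log2 value in each liver, with the mean and SD as bars, each treated group (orange) left of its control (blue). The corn oil livers are drawn for both cyproterone acetate and 1,4-dichlorobenzene. The phenobarbital livers at 28 and 56 days stand above all their water controls.

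Gadd45b passed in some, not all, of the comparisons with a large rise of Cyp2b10, the cytochrome P450 that CAR induces most in mouse liver. Cyp2b10 differed by 7.93 ± 0.467 and 6.98 ± 0.467 after phenobarbital at 28 and 56 days and by 5.60 ± 0.467 after cyproterone acetate, where Gadd45b rose. It differed by 6.47 ± 0.467 after 1,4-dichlorobenzene, 6.06 ± 0.495 in the livers labelled pioglitazone and 5.26 ± 0.467 after CITCO in hCAR/hPXR mice, where Gadd45b did not pass. Wy-14643 raised Gadd45b with a Cyp2b10 difference of 0.95 ± 0.495, which did not pass. Among compounds with a Cyp2b10 difference above 5, the only direct test of Gadd45b between 2 of them was that of cyproterone acetate and 1,4-dichlorobenzene given above.

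**Figure D3:**
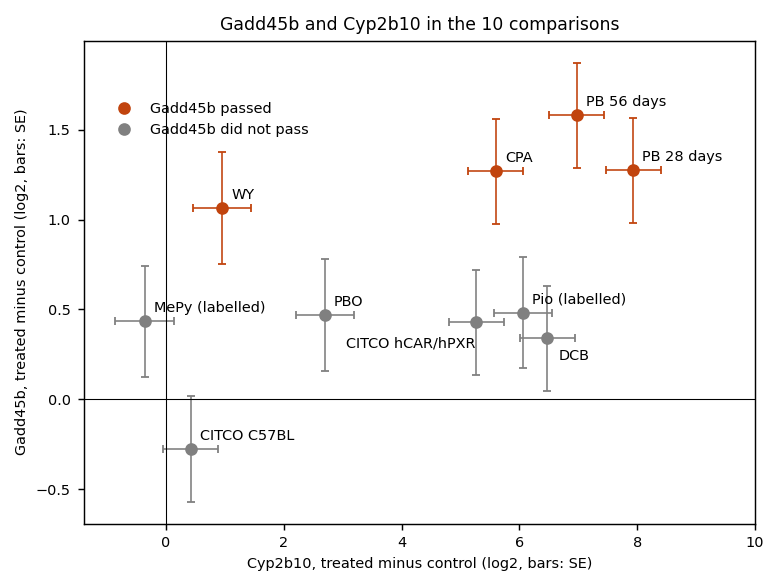
Gadd45b difference (vertical) against Cyp2b10 difference (horizontal), treated minus control in log2 with standard errors, for the 10 comparisons. Orange points passed for Gadd45b and grey points did not. Cyproterone acetate and 1,4-dichlorobenzene share their controls.

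The 3 probe sets of Gadd45b did not respond alike. The one used here has the highest mean, 7.67. A further one, with a mean of 6.60, differed by 0.74 and 0.98 after phenobarbital at 28 and 56 days, 1.22 ± 0.341 after cyproterone acetate and 1.06 with Wy-14643, and passed among all probe sets only for cyproterone acetate (adjusted p 0.0231). The remaining one, with a mean of 6.16, differed by 0.09, 0.21, 0.28 and -0.08 in those comparisons. With all probe sets of a gene averaged, the phenobarbital difference at 28 days was 0.70 and did not pass (adjusted p 0.155).

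Gadd45a, the classical DNA damage gene of the family, moved the opposite way from Gadd45b with Wy-14643. It was at 6.05, 5.40, 6.69, 6.31 and 6.28 in Wy-14643 livers, against 7.14, 7.33, 7.30 and 7.19 in cohort Co1. All treated livers lay below all controls, and the gene fell by 1.09 on the log2 scale (standard error 0.353, adjusted p 0.0327). The SD was 0.475 in the treated livers and 0.0929 in the controls, and no other group had as low an SD for this gene. The call was lost in 6 of 9 fits that left out 1 liver (those without Wy-14643 replicates 2 or 5 or any control), with adjusted p between 0.022 and 0.112 and differences between -1.23 and -0.91. Set against the mean of all 5 C57BL CMC cohorts, an alternative chosen after seeing the data, the difference was -1.15 with an adjusted p of 0.00089. The p-values of this alternative hold the spread between mice of a group and not the differences between cohorts.

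After 56 days of phenobarbital Gadd45a was at 7.66, 8.84, 8.13, 8.60 and 8.75, against 7.01, 7.12, 8.42, 8.08 and 5.93 in water livers. The groups overlapped and the difference of 1.08 ± 0.333 did not pass (adjusted p 0.158). Of 10 fits that left out 1 liver it passed in 1, without water replicate 3 (1.36, adjusted p 0.0388), and the lowest value was 0.74 without water replicate 5 (adjusted p 0.724). In the other 8 comparisons Gadd45a differed by between -0.24 and 0.57.

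Gadd45g was the most variable of the 9 genes between mice of a group, with a median group SD of 1.03, and passed in no comparison. Its differences ran from -1.50 after 56 days of phenobarbital to 1.90 with Wy-14643, with standard errors of 0.725 to 0.769. With Wy-14643 it was at 9.68, 10.30, 6.50, 10.08 and 10.91, against 7.99, 8.11, 7.14 and 7.13 in cohort Co1 (adjusted p 0.0973). In the treated group 4 livers stood above every control and replicate 3 stood below every control. Without that liver the difference was 2.65 and passed (adjusted p 0.0163).

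Cdkn1a and Btg2, which restrain the cell cycle, passed with Wy-14643 and in no other comparison. Cdkn1a was at 7.62, 9.02, 6.76, 6.76 and 9.82 in Wy-14643 livers, against 6.96, 7.17, 6.38 and 5.90 in cohort Co1. It rose by 1.40 ± 0.381 (adjusted p 0.0099), although 2 of the 5 treated livers lay within the control range. Btg2 was at 7.84, 10.11, 8.13, 8.82 and 10.84 in Wy-14643 livers, against 7.93, 8.30, 7.49 and 7.56 in controls, and rose by 1.33 ± 0.444 (adjusted p 0.0394). For both genes replicates 2 and 5 of the treated livers were the highest. The same livers had the acute phase gene Lcn2 at 13.01 and 11.62, against 5.24, 6.97 and 8.18 in the other treated livers and 4.70 to 6.30 in the controls. Replicate 5 was the highest of the treated livers for 7 of the 9 genes (Gadd45b, Gadd45g, Cdkn1a, Ccng1, Trp53inp1, Btg2 and Phlda3). The other probe set of Cdkn1a gave 1.72 ± 0.493 (adjusted p 0.0167) and that of Btg2 1.05, which did not pass.

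These calls depended on single livers and on the model. Cdkn1a did not pass without Wy-14643 replicate 2 (1.14, adjusted p 0.0521), without replicate 5 (0.94, adjusted p 0.114) or without control replicate 4 (1.16, adjusted p 0.0599). Btg2 did not pass in 5 of 9 such fits, with 0.91 (adjusted p 0.232) without replicate 5 and 1.09 (adjusted p 0.131) without replicate 2; the others lacked control replicates 1, 3 or 4. In a model of the 2 groups alone the same differences had adjusted p of 0.182 for Cdkn1a and 0.162 for Btg2. Against the mean of the 5 C57BL CMC cohorts Cdkn1a was higher by 0.76 (adjusted p 0.0573) and Btg2 by 0.60 (adjusted p 0.234). Cohort Co1 had the lowest mean of both genes among the cohorts.

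**Figure D4:**
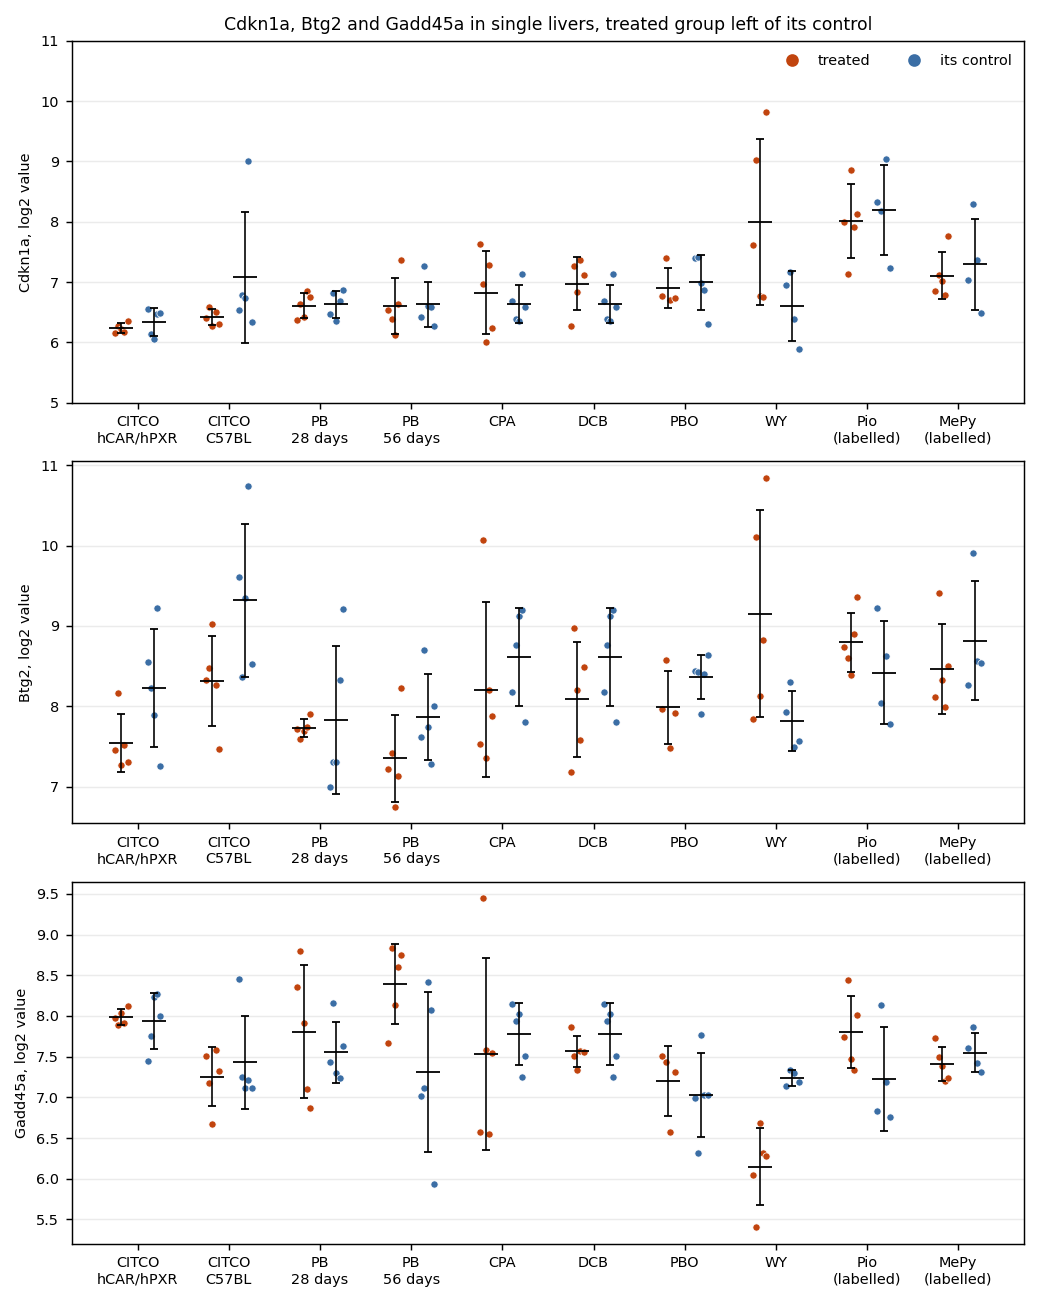
Log2 values of Cdkn1a (top), Btg2 (middle) and Gadd45a (bottom) in each liver, with mean and SD, each treated group (orange) left of its control (blue). With Wy-14643 2 livers are far above their controls in Cdkn1a and Btg2, and all 5 are below them in Gadd45a. The livers labelled pioglitazone and their cohort Co5 are both high in Cdkn1a.

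No other compound moved Cdkn1a or Btg2 past the threshold. The differences of Cdkn1a in the other 9 comparisons lay between -0.66 (CITCO in C57BL mice) and 0.34 (1,4-dichlorobenzene), and those of Btg2 between -1.01 (CITCO in C57BL mice) and 0.38 (the livers labelled pioglitazone). The C57BL CITCO livers had Cdkn1a at 6.41, 6.59, 6.27, 6.50 and 6.30, against 6.53, 6.79, 6.74, 9.0 and 6.33 in cohort Co4, where 1 control liver stood apart. Without that liver the difference was -0.18, while against the mean of the 5 CMC cohorts it was -0.82 with an adjusted p of 0.0467. That p ignores the differences between cohorts, in which Cdkn1a passed an F test (adjusted p 0.0117, limma).

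Ccng1, a p53-induced cyclin that works with protein phosphatase 2A on Mdm2, rose in 2 comparisons and by little. With Wy-14643 it was at 9.49, 8.87, 9.39, 9.45 and 9.67, against 8.94, 8.97, 8.57 and 8.71 in cohort Co1, and rose by 0.57 ± 0.136 (adjusted p 0.00249), 1.49-fold. Of the 6 calls with Wy-14643 this one alone passed whichever of the 9 livers was left out. Against the mean of the 5 CMC cohorts the rise was 0.54 (adjusted p 3.5e-05). That p ignores the differences between cohorts, in which Ccng1 passed an F test (adjusted p 0.0446, limma). A model of the 2 groups alone gave the Wy-14643 rise an adjusted p of 0.0602. After 1,4-dichlorobenzene Ccng1 was at 9.77, 8.95, 9.0, 9.64 and 9.03, against 8.89, 8.70, 8.90, 8.57 and 8.78 in corn oil livers. No treated liver lay within the control range, and the rise was 0.51 ± 0.128 (adjusted p 0.0081). It was carried by replicates 1 and 4: without either the difference was 0.39 (adjusted p 0.118) or 0.42 (adjusted p 0.0695), and a model of the 2 groups alone gave an adjusted p of 0.178. A further probe set of Ccng1 also passed in both, at 0.55 ± 0.159 with Wy-14643 and 0.59 ± 0.15 after 1,4-dichlorobenzene, while the remaining one, at 0.28 and 0.43, did not. Other genes moved with the 1,4-dichlorobenzene livers. Of 21 acute phase genes 4 fell, Itih3 (-0.73 ± 0.185), Itih4 (-0.72 ± 0.163), Fgb (-0.37 ± 0.0909) and Fga (-0.31 ± 0.0878), with a list mean of 11.19 to 11.78 against 11.24 to 12.43 in corn oil livers. Of 7 hepatocyte markers Hnf4a (-0.54 ± 0.117) and Apoa1 (-0.15 ± 0.0373) fell, of 19 proliferation genes Mcm6 rose (1.07 ± 0.245), and of 14 clock and output genes Ciart fell (-1.07 ± 0.28) and Clock rose (0.60 ± 0.178). Their part in the Ccng1 values was not tested.

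Cyproterone acetate livers, with the same controls, differed by 0.12 ± 0.128 in Ccng1. Cyproterone acetate minus 1,4-dichlorobenzene was -0.39 ± 0.128 (adjusted p 0.0719), which missed the threshold on the probe set used. The further probe set gave -0.62 ± 0.15 (adjusted p 0.00646). In the livers labelled pioglitazone Ccng1 differed from cohort Co5 by 0.30 ± 0.136 (adjusted p 0.573).

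Mdm2, the ubiquitin ligase that closes the p53 feedback loop, was at 8.24, 9.12, 8.33, 8.38 and 8.59 in Wy-14643 livers, against 7.97, 7.84, 8.42 and 8.28 in cohort Co1. It rose by 0.41 ± 0.138 (adjusted p 0.0428), the smallest of the 6 calls, with the groups overlapping. The call was lost without Wy-14643 replicates 2 or 5 or control replicates 1 or 2, the lowest difference being 0.26. It was also lost with array medians subtracted (adjusted p 0.0705), and against the mean of the 5 cohorts (0.13, adjusted p 0.429), where cohort Co1 again had the lowest mean. The other probe sets of Mdm2 gave 0.09 and -0.28. Elsewhere Mdm2 differed by between -0.22 and 0.19.

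Trp53inp1, a p53-induced stress protein that promotes apoptosis and autophagy, passed in no comparison. It differed by 0.52 ± 0.218 with Wy-14643 (adjusted p 0.113), with livers at 11.08, 11.75, 11.13, 11.71 and 12.03, against 11.05, 11.33, 10.92 and 10.77 in cohort Co1. Against the mean of the 5 cohorts, whose means of this gene lay between 10.85 and 11.09, the difference was 0.57 and passed (adjusted p 0.00969). That p holds the spread between mice of a group and not the differences between cohorts. The lowest difference was -0.44 ± 0.206 after 28 days of phenobarbital, which did not pass (adjusted p 0.481).

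Phlda3, which competes with Akt for membrane lipids and is a direct p53 target, passed in no comparison and had the narrowest range of differences of the 9 genes. Its 10 differences lay between -0.13 and 0.23, and their 95% intervals between -0.40 and 0.51. With Wy-14643 it was at 6.37, 6.47, 6.29, 6.34 and 7.0, against 6.87, 6.17, 6.61 and 6.36 in cohort Co1, a difference of -0.01 ± 0.148.

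The wider p53 pathway was read from lists of genes that are no members. The 36 other p53 targets measured had a median difference of 0.02 with Wy-14643, against -0.04 for all genes. Of these, 6 rose and 4 fell, where 10.6% of all genes passed in either direction. Those furthest from 0 were Pltp, a lipid transfer protein (2.20 ± 0.315), Bcl6, a repressor (-2.06 ± 0.625), Mdm4, the partner of Mdm2 (0.70 ± 0.172), and the receptor kinase Epha2 (-0.63 ± 0.201). In the other comparisons at most 1 of the 36 passed: Ei24 fell by 0.52 after 28 days of phenobarbital, Pltp by 1.35 after cyproterone acetate and Ercc5 by 0.46 after 1,4-dichlorobenzene. Of 11 regulators of p53, the deacetylase Sirt1 fell by 0.48 after cyproterone acetate and by 0.55 after 1,4-dichlorobenzene. Mdm4, which is also among the 36 targets above, was the only regulator that passed with Wy-14643. Trp53 itself was not analysed here.

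Among 10 genes for partners of Gadd45 proteins and the p38 and JNK kinases, Cdk1, a mitotic kinase, rose with Wy-14643 (1.28 ± 0.275) and the p38-activating kinases Map2k6 (-0.71 ± 0.241) and Map2k3 (-0.34 ± 0.0929) fell. Map2k3 rose by 0.37 ± 0.0929 after piperonyl butoxide, and none of the 10 passed after phenobarbital or cyproterone acetate. Relatives of the members moved in 3 comparisons. The cell cycle inhibitor Cdkn2c rose after 1,4-dichlorobenzene (1.05 ± 0.159) and cyproterone acetate (0.58 ± 0.159), and Tob2, an antiproliferative relative of Btg2, fell after both (-0.79 ± 0.244 and -1.07 ± 0.244). Ccng2, a relative of Ccng1, rose by 0.59 ± 0.157 after cyproterone acetate, and Cdkn1b (p27), a relative of Cdkn1a, fell by 0.52 with Wy-14643.

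Other gene groups moved with the Wy-14643 livers, where 10.6% of all genes passed in either direction. Of 19 proliferation genes 8 rose, with a median of 0.60, led by Mki67 (1.72 ± 0.37), Ccnb2 (1.30 ± 0.324), Ccnd1 (1.28 ± 0.416) and Cdk1, and their mean ran from 5.78 to 7.09 in treated livers, against 5.42 to 5.61 in controls. Of 12 macrophage markers 7 rose, led by C1qb (1.70 ± 0.358) and Cd5l (1.68 ± 0.407), with a list mean of 7.42 to 8.69 against 6.73 to 7.30 in controls. Of 21 acute phase genes 5 rose, led by Mt1 (3.63 ± 0.81) and Lcn2 (3.58 ± 1.04), with a list mean of 10.69 to 13.63 against 10.77 to 11.31. The 18 immediate early and stress factors held 1 that rose, Klf6, and 1 that fell, Ier2, with a list mean of 7.0 to 8.06 against 7.23 to 7.63. Their part in the values of the 9 genes was not tested.

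The control cohorts themselves differed in some of these genes without any compound. Among the 5 C57BL CMC cohorts, 2 of the 9 genes, Cdkn1a and Ccng1, passed an F test in limma, where 33.2% of all genes passed. Mean Cdkn1a was 6.60 ± 0.576 in cohort Co1, 7.0 ± 0.456 in Co2, 7.30 ± 0.756 in Co3, 7.08 ± 1.09 in Co4 and 8.20 ± 0.746 in Co5 (SD, adjusted p 0.0117). The means of Co1 and Co5, the lowest and the highest, were 1.59 apart. That is the widest of all pairs of cohorts, while the Wy-14643 difference of 1.40 is 1 preset comparison. The livers labelled pioglitazone averaged 8.01 ± 0.617, so these too were high next to the other groups while differing from cohort Co5 by -0.19 ± 0.381. Mean Ccng1 lay between 8.57 in cohort Co4 and 9.02 in Co2 (adjusted p 0.0446), and mean Btg2 between 7.82 in Co1 and 9.32 in Co4 (adjusted p 0.0525). Which genes passed depended on the fit. In a model of the 5 cohorts alone Cdkn1a (adjusted p 0.093) and Ccng1 (0.0706) did not pass and Btg2 did (0.0387). Ccng1 was also lost with array medians subtracted (adjusted p 0.0826) and with probe sets averaged (0.479), where Btg2 passed (0.0435 and 0.0497). Of 22 fits that left out 1 control liver, Ccng1 missed the threshold in 8 (adjusted p up to 0.23, without Co4 replicate 4) and Cdkn1a in 1 (adjusted p 0.118, without Co5 replicate 3). No source used here states how each cohort was dosed, and the cohorts cannot be told apart from any day or batch they were handled in.

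Some pairs of these genes varied together among mice given the same treatment. How often pairs of other genes do so was not computed. The correlation of deviations from the group means was computed for 36 pairs of the 9 genes over 91 mice, with permutation within groups, and 7 pairs passed after Benjamini-Hochberg adjustment over the 36 by Pearson's r and by Spearman's rho, each of them positive. Cdkn1a and Btg2 gave r = 0.57 and rho = 0.52, with r = 0.566 in the 49 treated mice and 0.575 in the 42 control mice. The adjusted permutation p was 0.00036 for each measure. Before adjustment it was 2e-05 for r and 1e-05 for rho, the latter the smallest that 100000 permutations can give. Without the 2 mice farthest from the median of Cdkn1a r was 0.47, and without the Wy-14643 mice 0.477. Trp53inp1 and Btg2 gave r = 0.538 and rho = 0.537 (adjusted permutation p 0.00036 each), and r = 0.519 without the 2 farthest mice. Cdkn1a and Trp53inp1 gave r = 0.513 and rho = 0.493 (adjusted permutation p 0.00063 and 0.00036), and Gadd45g and Btg2 gave r = 0.495 and rho = 0.407 (adjusted permutation p 0.00036 and 0.00274); without the 2 farthest mice r was 0.422 and 0.447.

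The other pairs that passed were weaker. Gadd45b correlated with Trp53inp1 at r = 0.384 (rho 0.42, adjusted permutation p 0.00533 and 0.00207) and with Btg2 at r = 0.362 (rho 0.337, adjusted permutation p 0.0392 and 0.0252). Gadd45g correlated with Cdkn1a at r = 0.372 (rho 0.322, adjusted permutation p 0.0313 and 0.0263). Without the 2 farthest mice r was 0.373, 0.274 and 0.345 in these pairs, and for Gadd45b and Btg2 it was 0.454 in treated and 0.211 in control mice. None of the pairs with Gadd45a, Mdm2, Ccng1 or Phlda3 passed. The closest to the threshold among them was Ccng1 and Phlda3 at r = 0.262 (rho 0.248, adjusted permutation p 0.0852 and 0.119).

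**Figure D5:**
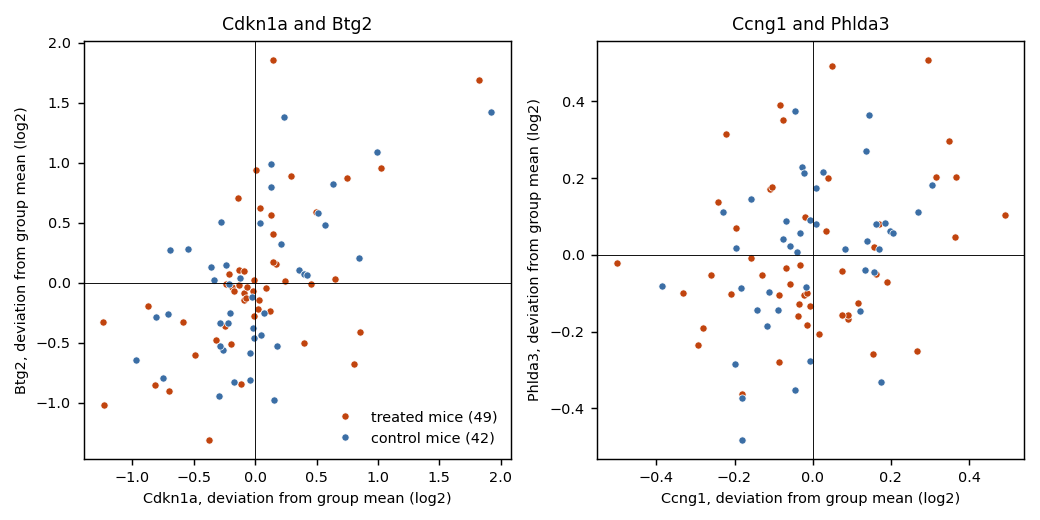
Deviation of each mouse from its group mean (log2) for Btg2 against Cdkn1a (left) and Phlda3 against Ccng1 (right), treated mice in orange and control mice in blue. The left pair rises together in treated and control mice alike (r = 0.57), and the right pair did not pass (r = 0.262).

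The same deviations were set against the means of 3 lists, 27 relations in all, of which 10 passed by Pearson's r. Btg2 followed the 18 immediate early and stress factors, such as Fos, Jun and Egr1, most closely (r = 0.765, rho = 0.72, adjusted permutation p 0.000135 each), at r = 0.794 in treated and 0.733 in control mice and 0.717 without the 2 farthest mice. Trp53inp1 (r = 0.512, rho 0.526), Gadd45g (0.515, rho 0.46), Gadd45b (0.496, rho 0.45) and Cdkn1a (0.414, rho 0.393) also passed with that list, with adjusted permutation p of at most 0.00885. Without the 2 farthest mice r was 0.493, 0.482, 0.427 and 0.327 in these. Btg2 also followed the 21 acute phase genes (r = 0.569, rho = 0.493, adjusted permutation p 0.00036 each, and 0.515 without the 2 farthest mice). Against the mean of the 14 clock and output genes, Cdkn1a (r = -0.458, rho -0.404), Btg2 (-0.435, rho -0.378), Gadd45g (-0.42, rho -0.44) and Phlda3 (-0.329, rho -0.289) ran the other way, with adjusted permutation p of at most 0.0255 for r and 0.048 for rho. Without the 2 farthest mice these were -0.384, -0.343, -0.431 and -0.302. The clock list joins genes that moved opposite ways with cyproterone acetate, such as Dbp (-2.24) and Arntl (1.34). Its mean is therefore no measure of clock phase. Time of death of each mouse was not given in the sources used here.

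Likeness to the rest of the transcriptome was described by the correlation of a gene's 10 treated minus control differences with those of the genes that passed in at least 1 comparison (3102 or 3103 others), over 10 points of which 2 share their controls. The genes with the pattern most like each member were, for Gadd45b, Ndrg1 (r = 0.865), Ifnar2 (0.823) and Pnliprp1 (0.771); for Gadd45a, Lman1 (0.913), Creld1 (0.895) and Epn2 (0.891); and for Gadd45g, Fundc1 (0.945), Psmf1 (0.938) and Nkiras2 (0.918). For Cdkn1a they were Sat1 (0.95), Spg7 (0.944) and Trpm4 (0.942), and for Btg2 Ppm1h (0.972), Dio3os (0.951) and Stap2 (0.949). For Ccng1 they were Zswim7 (0.954), Atpif1 (0.949) and Pld3 (0.946), and for Mdm2 Uqcr10 (0.968), Etfbkmt (0.918) and Cenpw (0.887). Trp53inp1 was most like Mdm2 (0.841), Rpl10a (0.825) and Uqcr10 (0.824), and Phlda3 most like Aadac (0.86), Tle1 (0.858) and Map3k20 (0.803). Each r given here is among the highest of 3102 or 3103, and the r expected from such a choice by chance was not computed. Of the 10 comparisons, the genes named for Gadd45a, Gadd45g, Cdkn1a, Mdm2, Btg2 and Trp53inp1 passed with Wy-14643 alone. How far that comparison set these r was not tested. The differences of Phlda3 lay between -0.13 and 0.23, with standard errors of 0.139 to 0.148.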

How the data were processed

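Total liver RNA of 91 mice was measured on Affymetrix arrays. The submitters' processing notes name RMA for the deposited log2 values per probe set, which the authors had normalized; its version and a genome build are not given in the sources used here. RMA equalises the arrays' distributions, so a change in total RNA would not be seen. Arrays give no counts, and their number limits the precision. Of 45037 probe sets, 34945 had 1 symbol, 932 several and 9160 were unnamed here. Each of 18193 genes was read from the brightest, by mean, of the probe sets that carry its symbol alone. Groups and controls came from the labels, and mice were taken as separate replicates. A limma 3.58.1 model (R 4.3.3) with 1 mean per group, 72 residual degrees of freedom and a mean-variance trend gave two-sided p-values, adjusted over all genes. The fit was tested on simulated data. The genes and lists were chosen with earlier results of these data known. From each list, up to 4 genes with the largest difference among those that passed in a comparison are named, and for each member the 3 genes most alike. Correlations used 100000 permutations (numpy 2.4.6).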

Additional observations from a re-analysis of the deposited data

Results flagged for a closer look

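Single livers that stood apart from the rest of their group were looked for among 171 sets of values (9 genes in 19 groups) with Dixon's ratio, and 13 were found, where about 8.6 would be expected by chance at 1 in 20. In treated groups these were Gadd45b at 8.83 and Btg2 at 8.17, both in replicate 2 of CITCO in hCAR/hPXR mice, Gadd45g at 8.79 in replicate 5 of phenobarbital at 28 days, and Gadd45g at 6.50, the lowest value, in replicate 3 of Wy-14643. Replicate 5 of Wy-14643 had Phlda3 at 7.0, replicate 5 of phenobarbital at 56 days had Trp53inp1 at 11.24, and replicate 1 of CITCO in C57BL mice had Phlda3 at 6.77. In the piperonyl butoxide group Cdkn1a was at 7.40 in replicate 2 and Ccng1 at 9.31 in replicate 4. In control groups Gadd45a was at 8.45 in replicate 1 and Cdkn1a at 9.0 in replicate 4 of cohort Co4, Mdm2 was at 8.73 in replicate 3 of cohort Co2 and Ccng1 at 8.97 in replicate 3 of cohort Co3. The cause of these values was not tested.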

How the results depend on the processing

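The number of the 9 genes that passed was recomputed under each alternative. Fitted on the groups of the comparison alone, it was 0 for cyproterone acetate, 0 for 1,4-dichlorobenzene, 2 for Wy-14643 (Gadd45a and Gadd45b) and 1 for the 5 CMC cohorts, against 1, 1, 6 and 2 in the model of all groups (Btg2 in place of Cdkn1a and Ccng1 for the cohorts). The spread is then estimated from fewer mice and from those groups alone. Treated and control SDs were 1.37 and 0.576 for Cdkn1a with Wy-14643, where the median group SD was 0.438. For Gadd45b with cyproterone acetate they were 1.05 and 0.199 (median 0.415). For Ccng1 with 1,4-dichlorobenzene they were 0.394 and 0.138 (median 0.177). The part of either in the lost calls was not tested. With all probe sets of a gene averaged the number of the 9 that passed was 0 for phenobarbital at 28 days. It was 4 for Wy-14643 (Gadd45b and Mdm2 lost, Mdm2 at 0.075 with an adjusted p of 0.662). It was 2 for cyproterone acetate minus 1,4-dichlorobenzene, which had 1 with array medians subtracted and 2 with genes below the median gene left out. With array medians subtracted Wy-14643 had 5, without Mdm2. With the mean of the 5 C57BL CMC cohorts as control, chosen after seeing the data, the number was 4 for Wy-14643 (Cdkn1a, Btg2 and Mdm2 lost, Trp53inp1 gained). It was 1 for CITCO in C57BL mice (Cdkn1a) and 1 for the livers labelled pioglitazone (Ccng1). The p-values of that setting do not hold the differences between cohorts. Replicate numbers were not taken as pairs: in 0 of 10 comparisons did every same-numbered pair correlate above 0.1. The most was 3 of 5 pairs, for 1,4-dichlorobenzene, with r up to 0.223. This rule cannot show that mice of the same number were handled apart. With the replicate number as a block the count was 0 for Wy-14643, whose replicate 5 has no partner, and 1 for cyproterone acetate minus 1,4-dichlorobenzene. Leaving out 1 mouse at a time gave 1 to 7 for Wy-14643, 0 to 1 for phenobarbital at 28 days, cyproterone acetate and 1,4-dichlorobenzene, 1 to 2 for phenobarbital at 56 days, 0 to 2 for cyproterone acetate minus 1,4-dichlorobenzene and 1 to 3 for the cohorts. It gave 0 throughout for both CITCO comparisons and their difference, the phenobarbital times, piperonyl butoxide and the livers labelled pioglitazone and methapyrilene. Of the values for single genes recomputed, 211 stayed on their side of the threshold, 44 lost it and 18 passed newly, and none that had passed changed direction. The correlations passed for 6 pairs with array medians subtracted. Without a mean-variance trend no count moved. How many of all genes passed under each alternative was not recorded, so these counts have no share of all genes beside them.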
